A study of Homo sapiens with 4 samples.

Results

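The genes described here are 10 genes of the endocannabinoid system and the channels it touches. There were 4 transient receptor potential (TRP) channels (TRPV1, TRPV2, TRPV4 and TRPA1) and 6 enzymes that make or break down endocannabinoids (NAPEPLD, FAAH, DAGLA, DAGLB, MGLL and ABHD6). They were taken by gene symbol from the 58233 Ensembl genes of the counts table, and all 10 were found. The measurements are poly(A)-selected RNA-seq counts of MIA PaCa-2 and PANC-1, established human pancreatic cancer cell lines with the genotype given as WT. Each line was collected 24 h after PBS or cannabichromene (CBC, a non-psychotropic phytocannabinoid), with CBC at 35 µM in MIA PaCa-2 cells and 30 µM in PANC-1 cells. The sample records call the controls PBS, and the methods speak of a vehicle control. There was 1 library per condition and 4 in all, so no difference within a line or between the untreated lines has a replicate check.

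TRPV1, TRPV2, TRPV4 and TRPA1 are cation channels that open to heat, stretch, irritants or lipids, and several plant cannabinoids are known to act on them. Anandamide and 2-arachidonoylglycerol (2-AG) are the main endocannabinoids, made on demand from membrane lipids and removed by hydrolysis inside cells. NAPEPLD releases anandamide and related N-acylethanolamines, and FAAH hydrolyses them. DAGLA and DAGLB make 2-AG from diacylglycerol, and MGLL and ABHD6 hydrolyse it. The question put to these libraries is how CBC treatment and the choice of line moved the transcripts of this system.

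Several of these genes were close to unread. TRPA1 had 0 counts in both MIA PaCa-2 libraries, against 30 and 6 in the PBS and CBC libraries of PANC-1 cells. A count of 0 allows up to 3 counts, which is 0.135 CPM (counts scaled by library size, with TMM factors) in the MIA PaCa-2 PBS library and 0.121 CPM in the CBC library. TRPV4 had 4 counts in PANC-1 cells with PBS and 0 with CBC, and TRPV2 had 4 and 19 counts in MIA PaCa-2 cells. MGLL with 6 counts and FAAH with 14 were thinly read in untreated MIA PaCa-2 cells only. All other values rested on 44 counts or more. Members with a count numbered 9, 9, 10 and 9 in MIA PaCa-2 PBS, MIA PaCa-2 CBC, PANC-1 PBS and PANC-1 CBC, and those at 1 CPM or more numbered 6, 8, 9 and 8.

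The libraries held 21742775 to 27903667 counts on genes. KRT8, KRT18 and KRT19, keratins of epithelial cells, were abundant in all 4 libraries, and the summed level of 5 epithelial and ductal markers was 3476 CPM in MIA PaCa-2 PBS, 2553 in MIA PaCa-2 CBC, 2044 in PANC-1 PBS and 1202 in PANC-1 CBC. KRT7, a ductal keratin of the same list, went against that sum in the MIA PaCa-2 line, with 2 counts under PBS and 52 under CBC, and had 49 and 58 in PANC-1 cells. EPCAM, an epithelial adhesion molecule, had only 0 and 1 counts in MIA PaCa-2 cells against 264 and 250 in PANC-1 cells. The 3 endocrine markers were at 0 throughout, and the 3 acinar markers at 0 apart from 1 count of PRSS1. Of 3 leukocyte markers PTPRC and CD3E were at 0, while CD14 had 123 counts with PBS and 18 with CBC in MIA PaCa-2 cells, and 32 and 2 in PANC-1 cells. Summed sensory neuron markers ranged from 0.162 to 1.83 CPM. The part of these marker shifts in the results on the members was not tested. In bulk RNA, fewer cells with a transcript and less of it per cell cannot be told apart, and this holds for each level given here.

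Levels between genes were compared per length, as CPM per kilobase of exon (CPM/kb). The exon lengths came from another annotation than the one used for counting. Which transcript lengths were present in these cells was not tested. The counting intervals leave out any error in length, so the order of genes depends on the annotated lengths. In untreated MIA PaCa-2 cells DAGLB was highest at 7.81 CPM/kb, followed by ABHD6 at 3.19, TRPV1 at 2.34, NAPEPLD at 1.83 and DAGLA at 1.50 CPM/kb. TRPV4 was at 0.800 CPM/kb, and FAAH, TRPV2, MGLL and TRPA1 lay at 0.231 CPM/kb or lower. The counting intervals (95%, exact Poisson) of NAPEPLD and DAGLA overlapped, as did those of neighbours from FAAH down to TRPA1, so these neighbours were not separated. The order was another one in untreated PANC-1 cells. TRPV2 came first there at 12.6 CPM/kb, ahead of DAGLB at 8.41, ABHD6 at 5.89, NAPEPLD at 3.73 and FAAH at 2.89 CPM/kb. DAGLA at 1.04 and TRPV1 at 0.821 CPM/kb were not separated, and MGLL at 0.401, TRPA1 at 0.208 and TRPV4 at 0.0454 CPM/kb closed the list. TRPV1 and MGLL each had 103 counts in that library. Their order there came only from exon lengths of 5519 bases for TRPV1 and 11298 bases for MGLL. With CBC, DAGLB stayed first in MIA PaCa-2 cells at 10.3 CPM/kb and TRPV2 first in PANC-1 cells at 15.4 CPM/kb. TRPV1, DAGLA and ABHD6 were not separated from their neighbours in CBC-treated MIA PaCa-2 cells, at 1.74, 1.67 and 1.63 CPM/kb.

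**Figure D1:**
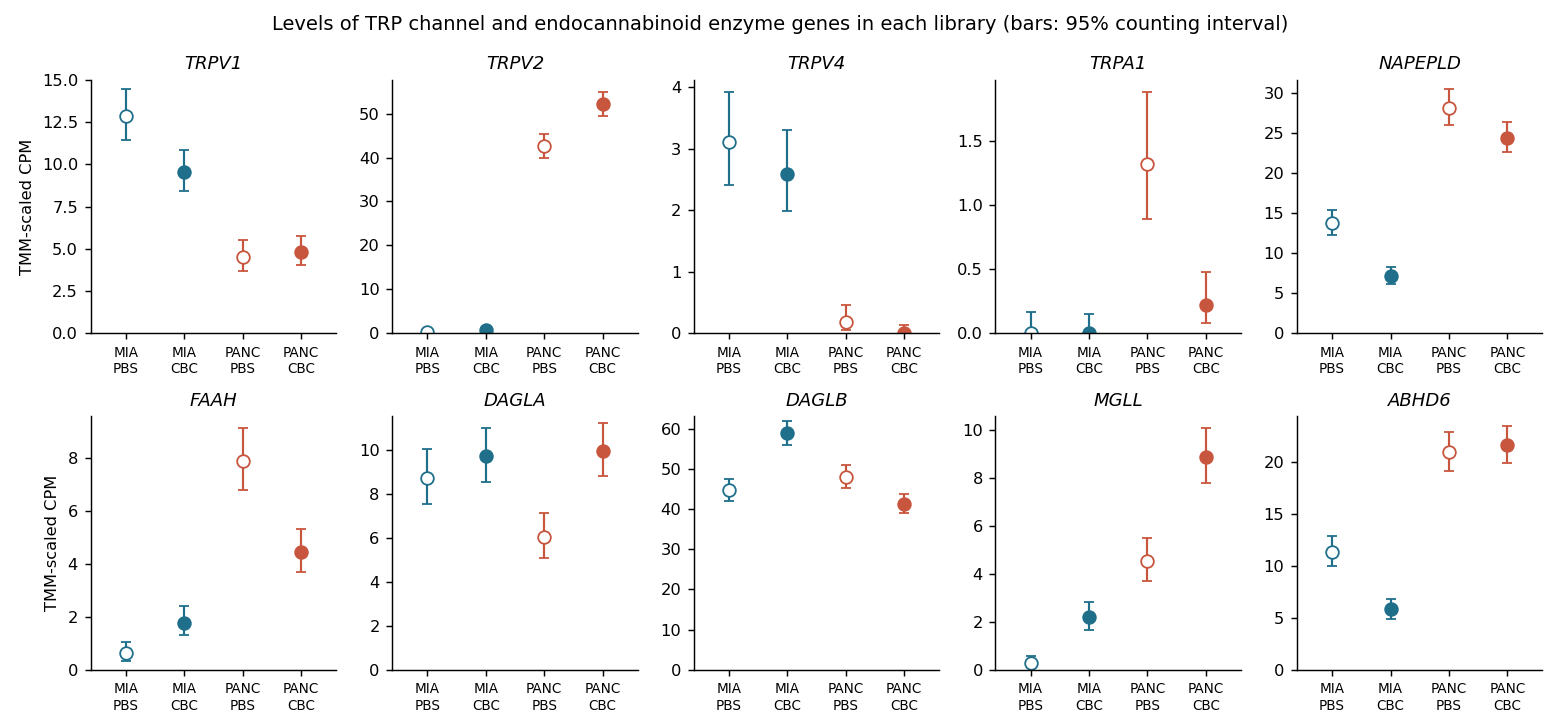
Level of each of the 10 genes in the 4 libraries, in TMM-scaled CPM on a linear axis of its own, with blue for MIA PaCa-2, red for PANC-1, open circles for PBS, filled circles for CBC and bars for the 95% counting interval of the 1 library. TRPV2, FAAH, MGLL, NAPEPLD and ABHD6 lie higher in both PANC-1 libraries than in both MIA PaCa-2 libraries, and TRPV1 and TRPV4 lie lower. Each axis starts at 0, and the points of DAGLB lie between 41.4 and 58.8 CPM.

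FAAH and DAGLB were the members whose scaled levels moved in opposite directions with CBC in the 2 lines beyond counting error, so the sequence before their RefSeq start sites is shown. RefSeq windows on GRCh38.p14 were at hand for 5 of the 10 members, and the 250 bases before the start are printed 5′ to 3′ on the strand of the gene. Capitals mark the GC box, GGGCGG on either strand, a motif that SP1-family factors bind. FAAH lies on the plus strand at chr1:46394067-46394316, and DAGLB on the minus strand at chr7:6447955-6448204.
FAAH: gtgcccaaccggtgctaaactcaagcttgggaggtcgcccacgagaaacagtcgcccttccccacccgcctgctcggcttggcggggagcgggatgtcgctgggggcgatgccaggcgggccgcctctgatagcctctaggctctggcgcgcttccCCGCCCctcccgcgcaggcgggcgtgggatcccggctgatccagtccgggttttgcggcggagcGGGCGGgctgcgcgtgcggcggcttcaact
DAGLB: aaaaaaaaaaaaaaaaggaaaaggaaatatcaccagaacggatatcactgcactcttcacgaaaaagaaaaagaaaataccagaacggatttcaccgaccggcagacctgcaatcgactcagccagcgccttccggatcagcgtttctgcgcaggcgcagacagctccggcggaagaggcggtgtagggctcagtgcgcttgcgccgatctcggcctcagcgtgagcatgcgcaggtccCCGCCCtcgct
The FAAH window held 29 CpG dinucleotides and 71.6% G and C, and the DAGLB window held 22 and 54.4%, against medians of 11 CpG and 58.0% over all windows. FAAH had GC boxes at -94 and -30 from the start, the first of them on the minus strand, and DAGLB had 1 at -11. A GC box stood in 42.5% of the 34943 windows. The windows of NAPEPLD and ABHD6, which lie partly in exons of other transcripts and are not printed, held 33 and 32 CpG and 1 and 2 GC boxes, those of ABHD6 overlapping. The TRPV1 window had only 7 CpG and 0 GC boxes, but it lies 12369 bases from the start of the main annotated transcript (MANE) and is not printed either. None of the 5 windows held the TATA box TATAAA on either strand, which stood in 10.8% of all windows, or the CCAAT box, which stood in 32.0%. They likewise held neither the antioxidant response element core TGACNNNGC, found in 10.9% of all windows, nor the ATF4 and CHOP element core TGATGNAA, found in 3.15%. These matches describe letters in a window and show no binding.

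CBC treatment of MIA PaCa-2 cells went with higher counts of the hydrolases MGLL and FAAH. Only genes at 1 CPM or more in the PBS or the CBC library were compared, and a gene was called when its log2 fold change (edgeR, TMM scaling, prior count 2) lay beyond 1 in either direction. Of the 8 members compared, 2 were called higher and 0 lower, where 11.5% of all 14001 genes compared were called higher and 8.97% lower. ABHD6, also a hydrolase, and NAPEPLD lay just short of the threshold on the lower side, at log2 fold changes of -0.96 and -0.94. The median log2 fold change was -0.05 over the 8 members and -0.01 over all genes compared. With at least 1 CPM required in both libraries neither MGLL nor FAAH was kept, and 0 members were called. When the whole counting interval had to lie past 2-fold, only MGLL was called.

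In PANC-1 cells 9 members were compared, 0 were called higher and 1, TRPA1, was called lower. Of all 14091 genes compared in PANC-1 cells, 7.71% were called higher and 7.03% lower. The median log2 fold change was 0.05 over the 9 members and 0.02 over all genes compared. Scaling by library totals alone brought MGLL past the threshold as well, at a log2 fold change of 1.03, and 0 members were called on the deposited CPM with a pseudocount of 1.

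More members were called between the lines than between treatments. Between the PBS libraries, 5 of the 10 members were called higher in PANC-1 cells (TRPV2, TRPA1, NAPEPLD, FAAH and MGLL) and 2 higher in MIA PaCa-2 cells (TRPV1 and TRPV4). Over all 14805 genes compared at baseline, 24.0% were called higher in PANC-1 cells and 18.0% higher in MIA PaCa-2 cells. The summed level of the 10 members was 95.6 CPM in MIA PaCa-2 and 164 CPM in PANC-1 cells with PBS, and 98.4 and 168 CPM with CBC. Only TRPV1 and NAPEPLD were still called when both libraries had to reach 1 CPM, since the other 5 called genes were under 1 CPM in 1 of the lines. NAPEPLD lay so near the threshold that it was not called with library totals alone (log2 0.90) or on the deposited CPM with a pseudocount of 1 (0.98). It was also not called when the counting interval had to lie past 2-fold. Each of these alternatives left 6 members called. Of all 14805 genes compared, they called 6243, 5321 and 4921 in the same order.

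Replication came only from treating the lines as pairs, with CBC tested against PBS over both lines in edgeR's quasi-likelihood test and cell line as a block. That fit had 1 residual degree of freedom. Of the 9 members tested, 0 passed an adjusted p (Benjamini-Hochberg over 16381 genes) of 0.05 and 1, MGLL, had an unadjusted p under 0.05. Among all genes tested, 2.26% were called higher and 2.45% lower with CBC, and 3428 of 16381 had an unadjusted p under 0.05 in that test. DESeq2 and limma-voom with the same design likewise called 0 members, with 1 at an unadjusted p under 0.05 each. Over all 16381 genes, 2707 were under that value in DESeq2 and 3694 in limma-voom. The difference between lines over both treatments passed an adjusted p of 0.05 in the edgeR fit for 7 of the 9 members. Of these, 5 were higher in PANC-1 and 2 higher in MIA PaCa-2 cells, where 25.1% and 21.7% of all genes tested were. For this difference the PBS and CBC libraries of a line stood in as its replicates, and no line had a second library of the same treatment. With treatment left out of the fit only TRPV2 and TRPV4 passed, and TRPV1, NAPEPLD, FAAH, MGLL and ABHD6 had adjusted p-values of 0.0657 to 0.134 in edgeR's quasi-likelihood test. Whether a response to CBC differed between the lines could not be tested, because that term leaves no residual degree of freedom.

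Among the channels, TRPV1, the capsaicin receptor, was read well in every library. Its gene (ENSG00000196689) lies on chromosome 17 of GRCh38, from 3565444 to 3609411, on the minus strand. TRPV1 had 287 counts in MIA PaCa-2 PBS, 237 in MIA PaCa-2 CBC, 103 in PANC-1 PBS and 132 in PANC-1 CBC, which is 12.9, 9.58, 4.53 and 4.83 CPM. Both MIA PaCa-2 libraries were thus above both PANC-1 libraries. With CBC, the log2 ratio was -0.43 in MIA PaCa-2 cells (95% interval -0.68 to -0.18, counting error only, here and below) and 0.09 in PANC-1 cells (-0.29 to 0.48). Neither value reached the 2-fold threshold, and in PANC-1 cells the interval held 0. Over both lines the log2 fold change with CBC was -0.17 ± 0.36 (SE, n = 4 libraries), with an adjusted p of 0.838 in edgeR's quasi-likelihood test. At baseline TRPV1 was 2.85-fold higher in MIA PaCa-2 cells (2.27 to 3.60). Over both treatments the difference between lines was -1.31 ± 0.37 on the log2 scale, PANC-1 against MIA PaCa-2, with an adjusted p of 0.0208 in edgeR's quasi-likelihood test.

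A protein-coding gene named only by its identifier, ENSG00000262304, shares 27.5% of the exon length of TRPV1 on the same strand and had 2 to 4 counts in each library. SHPK, which encodes sedoheptulokinase, shares 4.39% and had 199, 143, 56 and 41 counts in MIA PaCa-2 PBS, MIA PaCa-2 CBC, PANC-1 PBS and PANC-1 CBC. How the counting split reads between these genes is not given in the sources used here, so the TRPV1 counts are uncertain to that extent. The genes with the most similar pattern over the 4 libraries were ZNF276, TANGO6 and DBT. Their Euclidean distances to TRPV1 in centred log2 CPM were 0.0642, 0.0718 and 0.0840, among 11579 genes at 1 CPM or more in every library. ZNF276, for example, was at 59.5, 43.3, 21.8 and 23.2 CPM in the same order.

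TRPV2, a channel known for opening to stretch and strong heat, was the member with the widest gap between the lines. The gene (ENSG00000187688) spans 16415571 to 16437003 on the plus strand of chromosome 17. TRPV2 had 4 and 19 counts in MIA PaCa-2 cells with PBS and CBC and 968 and 1427 in PANC-1 cells, or 0.180, 0.768, 42.6 and 52.2 CPM. At baseline it was 237-fold higher in PANC-1 cells (92.1 to 870), with the width of that interval set by the 4 counts. The difference over both treatments was 6.64 ± 0.47 on the log2 scale, with an adjusted p of 3.51e-05 in edgeR's quasi-likelihood test. CBC moved it by a log2 ratio of 0.29 in PANC-1 cells (0.18 to 0.41), a small difference read from many counts. In MIA PaCa-2 cells the log2 ratio was 2.09 (0.51 to 4.11), and the gene was not compared there because both libraries were under 1 CPM. Over both lines the change with CBC was 0.69 ± 0.41, with an adjusted p of 0.379 in edgeR's quasi-likelihood test.

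TRPV4, a channel that responds to osmotic swelling, had the reverse distribution. Its gene (ENSG00000111199) is on the minus strand of chromosome 12, from 109783087 to 109833406. TRPV4 had 69 and 64 counts in MIA PaCa-2 cells with PBS and CBC and 4 and 0 in PANC-1 cells, which is 3.10, 2.59, 0.176 and 0 CPM. MIA PaCa-2 cells held 17.6-fold more of it at baseline (6.59 to 66.6), and over both treatments the log2 difference was -5.19 ± 0.91, PANC-1 against MIA PaCa-2, with an adjusted p of 0.00286 in edgeR's quasi-likelihood test. The log2 ratio with CBC in MIA PaCa-2 cells was -0.26 (-0.78 to 0.25), not separated from 0. In PANC-1 cells the 4 counts with PBS, scaled by library size, were 1.60-fold the limit of 3 counts in the CBC library, which had 0. The counting interval of the ratio of CBC to PBS reached up to 1.26-fold, so it still held no change. The test over both lines gave -0.77 ± 0.81 with CBC and an adjusted p of 0.644 in edgeR's quasi-likelihood test.

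TRPA1, the mustard oil receptor, was read in PANC-1 cells only. Its gene (ENSG00000104321) lies on the minus strand of chromosome 8, from 72019917 to 72075584. TRPA1 went from 30 counts to 6 in PANC-1 cells with CBC, or from 1.32 to 0.220 CPM, which is 6.01-fold lower (2.46 to 17.7). At baseline the 30 counts in PANC-1 cells, scaled by library size, were 9.78-fold the limit of 3 counts in the MIA PaCa-2 library. The lower 95% counting limit of the ratio itself was 7.47-fold. TRPA1 was too low to enter the test over both lines, so its lower level in PANC-1 cells rests on the 30 and 6 counts of that line alone.

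Together the 4 channels summed to 16.2 and 12.9 CPM in MIA PaCa-2 cells with PBS and CBC, and to 48.6 and 57.3 CPM in PANC-1 cells. TRPV1 held most of that sum in MIA PaCa-2 cells and TRPV2 most of it in PANC-1 cells.

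Of the enzymes, NAPEPLD, the phospholipase D that releases anandamide, was lower with CBC in MIA PaCa-2 cells without reaching the threshold. The gene (ENSG00000161048) spans 103099776 to 103149560 on the minus strand of chromosome 7. NAPEPLD had 307 and 177 counts in MIA PaCa-2 cells with PBS and CBC and 642 and 669 in PANC-1 cells, or 13.8, 7.16, 28.2 and 24.5 CPM. The log2 ratio was -0.95 (-1.22 to -0.68) in MIA PaCa-2 and -0.21 (-0.36 to -0.05) in PANC-1 cells. Over both lines it came to -0.56 ± 0.31, with an adjusted p of 0.340 in edgeR's quasi-likelihood test. Both PANC-1 libraries were above both MIA PaCa-2 libraries. The baseline difference was 2.05-fold (1.78 to 2.35), and the difference over both treatments was 1.34 ± 0.31 on the log2 scale with an adjusted p of 0.00938 in edgeR's quasi-likelihood test.

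FAAH, which hydrolyses anandamide, was higher with CBC in MIA PaCa-2 cells and lower in PANC-1 cells. Its gene (ENSG00000117480) runs from 46394317 to 46413848 on the plus strand of chromosome 1. FAAH had 14 and 44 counts in MIA PaCa-2 cells with PBS and CBC and 179 and 121 in PANC-1 cells, or 0.630, 1.78, 7.87 and 4.43 CPM. The lines therefore came closer together with CBC, although both PANC-1 libraries remained above both MIA PaCa-2 libraries. In MIA PaCa-2 cells the ratio was 2.83-fold (1.52 to 5.58) and the log2 fold change 1.39. In PANC-1 cells the level was 1.78-fold lower (1.40 to 2.26), short of the threshold. The average over both lines was 0.17 ± 0.63 on the log2 scale, with an adjusted p of 0.912 in edgeR's quasi-likelihood test. At baseline FAAH was 12.5-fold higher in PANC-1 cells (7.26 to 23.3), and over both treatments 2.33 ± 0.64 on the log2 scale, with an adjusted p of 0.0197 in edgeR's quasi-likelihood test.

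DAGLA and DAGLB, the diacylglycerol lipases, were the members with the baseline ratios closest to 1. DAGLA (ENSG00000134780; chromosome 11, 61680391 to 61747001, plus strand) had 194 and 240 counts in MIA PaCa-2 cells with PBS and CBC and 137 and 272 in PANC-1 cells, or 8.72, 9.70, 6.03 and 9.95 CPM. Its log2 ratio with CBC was 0.15 (-0.13 to 0.43) in MIA PaCa-2 and 0.72 (0.42 to 1.03) in PANC-1 cells. The untreated PANC-1 library was thus the lowest of the 4, and the other 3 lay between 8.72 and 9.95 CPM. The test over both lines gave 0.44 ± 0.36 with CBC, with an adjusted p of 0.528 in edgeR's quasi-likelihood test. The difference between lines was -0.30 ± 0.36, with an adjusted p of 0.511 in the same edgeR fit.

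DAGLB (ENSG00000164535) lies on chromosome 7 from 6409126 to 6484190 on the minus strand, and was the most counted member in MIA PaCa-2 cells. DAGLB had 993 and 1454 counts in MIA PaCa-2 cells with PBS and CBC and 1093 and 1130 in PANC-1 cells, or 44.7, 58.8, 48.1 and 41.4 CPM. Its log2 ratio was 0.40 (0.28 to 0.51) in MIA PaCa-2 and -0.22 (-0.34 to -0.10) in PANC-1 cells, both under the threshold. At baseline the log2 ratio of PANC-1 to MIA PaCa-2 was 0.11 (-0.02 to 0.23), and its sign turned with scaling by library totals alone (-0.03). With CBC over both lines it was 0.10 ± 0.25, with an adjusted p of 0.871 in edgeR's quasi-likelihood test, and between lines -0.26 ± 0.25, with an adjusted p of 0.426. KDELR2, a receptor that returns proteins to the endoplasmic reticulum, shares 6.58% of DAGLB's exon length on the same strand. It had 7298, 9086, 6913 and 6020 counts in MIA PaCa-2 PBS, MIA PaCa-2 CBC, PANC-1 PBS and PANC-1 CBC, and its part in the DAGLB counts was not tested.

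MGLL, the main hydrolase of 2-AG, was the member with the largest ratio to PBS in MIA PaCa-2 cells among those compared, and the one whose ratio lay farthest above 1 in PANC-1 cells. Its gene (ENSG00000074416) covers 127689062 to 128052190 on the minus strand of chromosome 3. MGLL had 6 and 54 counts in MIA PaCa-2 cells with PBS and CBC and 103 and 243 in PANC-1 cells, or 0.270, 2.18, 4.53 and 8.89 CPM. In each line the CBC library was above its own PBS library. The ratio was 8.09-fold (3.49 to 23.0) in MIA PaCa-2 cells, with the interval set by the 6 counts, and 1.96-fold (1.55 to 2.50) in PANC-1 cells. Over both lines the log2 fold change was 1.73 ± 0.58, with an unadjusted p of 0.0181 and an adjusted p of 0.141 in edgeR's quasi-likelihood test, so it did not pass. It passed only when every gene with at least 1 count was kept, at an adjusted p of 0.00917, and the adjusted p ranged from 0.00917 to 1 over the alternatives. MGLL was 16.8-fold higher in PANC-1 cells at baseline (7.46 to 46.8), and 2.75 ± 0.59 higher on the log2 scale over both treatments, with an adjusted p of 0.00703 in edgeR's quasi-likelihood test.

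ABHD6, the membrane-bound 2-AG hydrolase, was not higher with CBC in MIA PaCa-2 cells as MGLL was. The gene (ENSG00000163686) spans 58237532 to 58295693 on the plus strand of chromosome 3. ABHD6 had 253 and 144 counts in MIA PaCa-2 cells with PBS and CBC and 477 and 592 in PANC-1 cells, or 11.4, 5.82, 21.0 and 21.7 CPM. Its log2 ratio was -0.97 (-1.27 to -0.67) in MIA PaCa-2 cells, close to that of NAPEPLD and likewise short of the threshold at a log2 fold change of -0.96. In PANC-1 cells the log2 ratio was 0.05 (-0.13 to 0.22), an interval that held 0. With CBC over both lines it was -0.44 ± 0.34, with an adjusted p of 0.518 in edgeR's quasi-likelihood test. Between lines it was 1.32 ± 0.35 on the log2 scale, higher in PANC-1 cells, with an adjusted p of 0.0163, and at baseline the ratio was 1.84-fold (1.58 to 2.16), under the threshold.

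**Figure D2:**
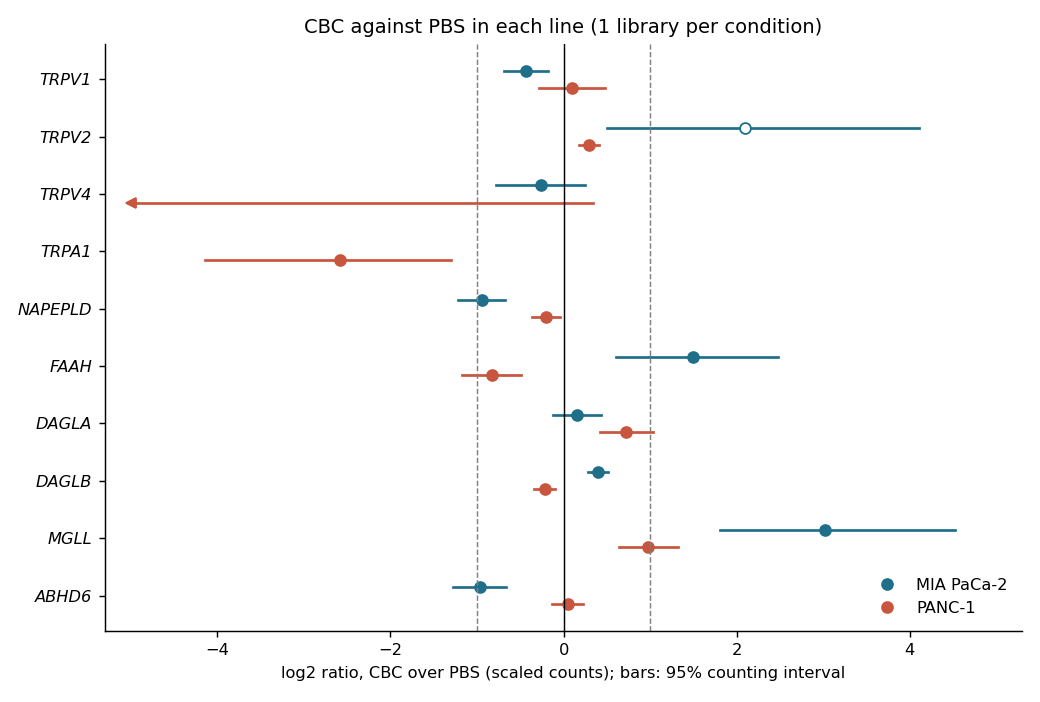
Log2 ratio of CBC to PBS for each member, from TMM-scaled counts, in MIA PaCa-2 (blue) and PANC-1 (red) cells, with 95% counting intervals as bars, an arrow where the CBC count is 0, an open circle for TRPV2 in MIA PaCa-2 cells (under 1 CPM in both libraries) and dashed lines at a log2 ratio of 1 and -1. MGLL lies right of 0 in both lines at 3.02 and 0.97, FAAH lies on opposite sides at 1.50 and -0.83, and NAPEPLD and ABHD6 lie near -1 in MIA PaCa-2 cells only.

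Levels per length also place the enzymes of 1 step beside each other. In MIA PaCa-2 cells ABHD6 stood at 3.19 CPM/kb with PBS and 1.63 with CBC, and MGLL at 0.0239 and 0.193 CPM/kb. In PANC-1 cells ABHD6 stood at 5.89 and 6.08 CPM/kb and MGLL at 0.401 and 0.787 CPM/kb. ABHD6 was thus above MGLL in all 4 libraries, while ABHD12, another 2-AG hydrolase that is no member, stood higher than both, at 14.0, 13.7, 17.5 and 13.2 CPM/kb in the same order. Of the diacylglycerol lipases, DAGLB was above DAGLA in every library, from 7.81 against 1.50 CPM/kb in MIA PaCa-2 PBS to 7.24 against 1.72 CPM/kb in PANC-1 CBC. For anandamide, the level of NAPEPLD was above that of FAAH in every library, with 1.83 against 0.231 CPM/kb in MIA PaCa-2 PBS, 0.946 against 0.653 in MIA PaCa-2 CBC, 3.73 against 2.89 in PANC-1 PBS and 3.24 against 1.63 CPM/kb in PANC-1 CBC. In CBC-treated MIA PaCa-2 cells their counting intervals overlapped (0.812 to 1.10 and 0.474 to 0.877 CPM/kb), so the pair was not separated there.

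**Figure D3:**
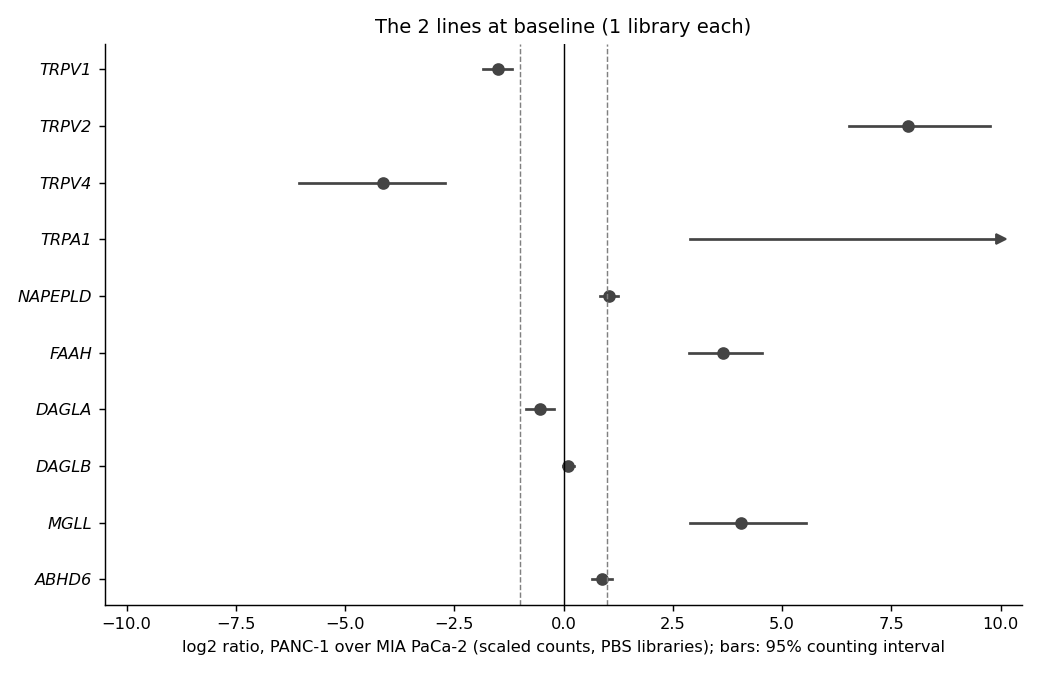
Log2 ratio of the untreated PANC-1 library to the untreated MIA PaCa-2 library for each member, from TMM-scaled counts, with 95% counting intervals, dashed lines at 1 and -1, and an arrow for TRPA1, which had 0 counts in MIA PaCa-2 cells. TRPV2 at 7.89, MGLL at 4.07 and FAAH at 3.64 lie farthest right of the points, TRPV4 at -4.14 and TRPV1 at -1.51 lie left, and DAGLB at 0.11 has an interval that includes 0.

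The other genes of the system gave a frame for these values. They were 57 genes in 5 lists (other TRP channels, cannabinoid receptors, other N-acylethanolamine enzymes, other 2-AG enzymes and lipid carriers), and 12 of them had 0 counts in all 4 libraries. CNR1, the CB1 receptor gene, was among those at 0, and CNR2, the CB2 receptor gene, had 1 and 1 counts in MIA PaCa-2 cells with PBS and CBC and 3 and 6 in PANC-1 cells. GPR55, a receptor for lysophospholipids, had counts only in untreated PANC-1 cells, where there were 4. No direction can be read from such counts.

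Of these other genes, 5 of the 24 compared in MIA PaCa-2 cells were called higher and 1 lower with CBC, and 4 of the 25 compared in PANC-1 cells were called higher and 0 lower. Over all genes compared, 11.5% were called higher and 8.97% lower in the first line and 7.71% and 7.03% in the second. The median log2 fold changes of the list were 0.28 and 0.39, beside -0.01 and 0.02 over all genes compared. ABHD4, a hydrolase of an alternative route to N-acylethanolamines, was the only one of the 29 tested over both lines that passed, where 2.26% of all genes passed as higher and 2.45% as lower. ABHD4 had 298 and 1231 counts in MIA PaCa-2 cells with PBS and CBC and 117 and 502 in PANC-1 cells, 3.71-fold (3.27 to 4.23) and 3.57-fold (2.91 to 4.40) higher with CBC. It rose by 1.87 ± 0.27 on the log2 scale over both lines, with an adjusted p of 0.0155 in edgeR's quasi-likelihood test and a range of 5.07e-07 to 1 over the alternatives, the last without the replicate block. Of the other N-acylethanolamine enzymes, in MIA PaCa-2 cells PLAAT4 had 12 counts with PBS and 92 with CBC and GDPD1 had 46 and 123, and had 4 or fewer and 12 or fewer counts in PANC-1 cells. NAAA, which hydrolyses palmitoylethanolamide, was called lower in MIA PaCa-2 cells at -1.24, and PLAAT3 and GDPD3 higher in PANC-1 cells at 1.18 and 1.15. Those 3 genes were named after their values were seen, as was TRPV3 at 2.11 in PANC-1 cells, from 0.352 to 1.79 CPM.

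Among the other TRP channels, 2 of the 8 compared in the MIA PaCa-2 line were called higher, as was 1 of the 9 compared in the PANC-1 line, and 7 of 23 had no counts. For MCOLN3, a lysosomal channel, the log2 fold change was 2.20 in the MIA PaCa-2 line and 0.58 in the PANC-1 line. TRPM8, the menthol and cold receptor, had 1.72 and 0.32, and TRPM4, a calcium-activated channel, had 0.91 and 0.76. None of the 9 other TRP channels tested over both lines passed. Of the 9 receptor genes, 4 were compared in the MIA PaCa-2 line and 3 in the PANC-1 line, and 0 of these were called. PPARG, a nuclear receptor that also binds lipids of this family, had log2 fold changes of 0.93 and 0.94, with an adjusted p of 0.0900 over both lines in edgeR's quasi-likelihood test. PPARA, its relative, had 0.17 and 0.81, and CNRIP1, a protein that binds the CB1 receptor, had 34 and 60 counts in MIA PaCa-2 cells and 2 and 0 in PANC-1 cells.

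Of the 9 other 2-AG enzymes, 2 were compared in the MIA PaCa-2 line and 5 in the PANC-1 line, and 0 of these were called. PLCB3, a phospholipase C that supplies diacylglycerol, had log2 fold changes of -0.78 and -0.69, with an adjusted p of 0.0955 in edgeR's quasi-likelihood test. PLCB4 had counts in PANC-1 cells and was at 0 in untreated MIA PaCa-2 cells, with a lower 95% counting limit of 79.8-fold for the baseline ratio. ABHD12 had -0.03 and -0.41. Of the lipid carriers, FABP5 had log2 fold changes of 0.34 and -0.89 and SCP2 had -0.96 and -0.12, with neither called.

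**Figure D4:**
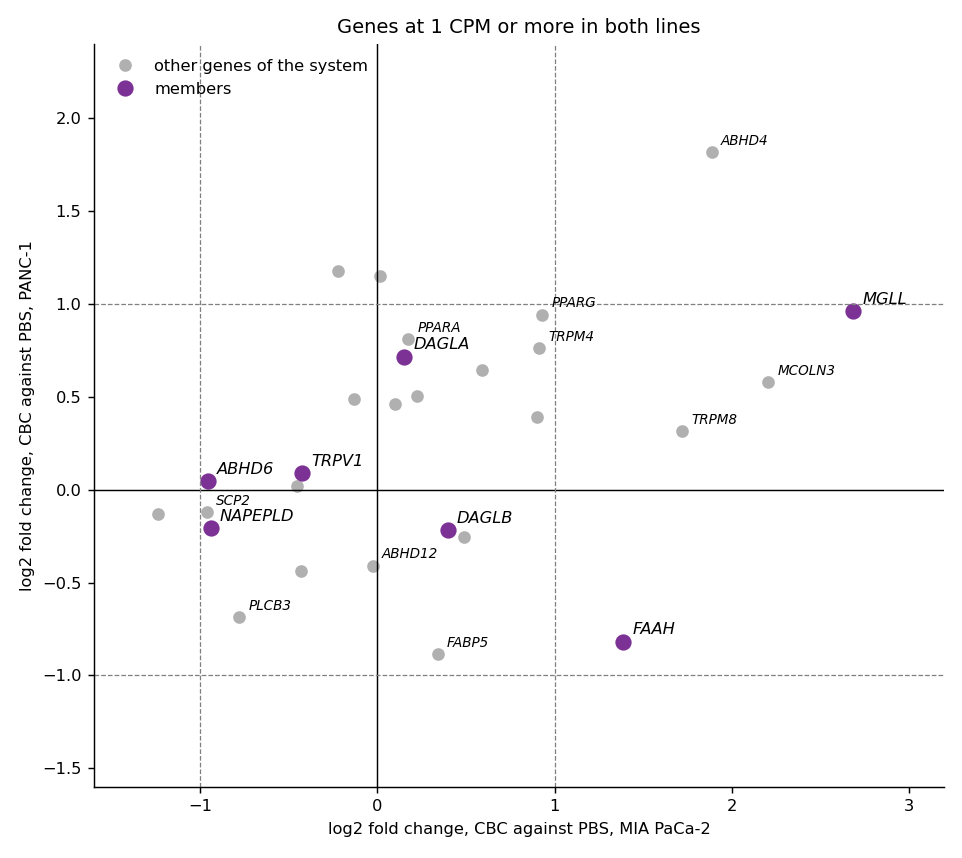
Log2 fold change with CBC in MIA PaCa-2 cells against that in PANC-1 cells (edgeR, prior count 2), for the 7 members (purple) and 21 other genes of the system (grey) compared in both lines, with dashed lines at 1 and -1. MGLL lies to the right at 2.69 and 0.96, FAAH in the lower right at 1.39 and -0.82, and ABHD4 in the upper right beyond 1 on both axes.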

How the data were processed

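Before deposit the authors used cutadapt 2.7 for trimming, STAR for alignment to GRCh38, and HTSeq for counts per gene of Ensembl release 89. The library kit marks strand, but the strand setting and counting mode are not given in the sources used here. The deposited counts are raw and were used for every result. The authors also deposited a normalized signal, namely CPM after TMM scaling, which differed from a recomputation by at most 6.84e-09 in relative terms.

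Of 58233 identifiers, 57392 matched a symbol of GENCODE 44 on GRCh38, which also gave positions and exon lengths. Folds within a line and at baseline were log2 differences of edgeR 4.0.16 (R 4.3.3) with a prior count of 2 and TMM factors from the 4 libraries. Intervals of count ratios are exact binomial 95% intervals (Clopper-Pearson, scipy 1.17.1), those of levels exact Poisson intervals, and a count of 0 allows 3 counts. All of them cover counting error only. Depth of 21742775 to 27903667 counts puts that limit at 0.110 to 0.135 CPM.

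Tests used edgeR's quasi-likelihood fit of cell line and treatment, with Benjamini-Hochberg adjustment over 16381 genes. Libraries of the same cell line form the pairs, and across genes their departures from the treatment means correlated at 0.923. With 1 residual degree of freedom, the spread used for a gene was drawn in part from all genes tested. The p-values measure only the spread between these libraries, pooled over genes in that way.

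The members and gene lists were chosen with earlier results of these data known. Named besides the members were CNR1, CNR2 and GPR55, up to 3 genes of each list with the largest mean absolute log2 fold change over the lines at a mean of 1 CPM or more, genes whose exons overlap a member's, marker genes, and the 3 genes nearest to TRPV1. Alternatives changed the scaling, the filter, the prior count (0.5 and 5), the values, the call rule, the block and the tool (DESeq2 1.42.0, limma 3.58.1). Promoter windows are those of RefSeq, and protein sequences were not used here.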

Additional observations from a re-analysis of the deposited data

Results flagged for a closer look

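FAAH stood out because its CBC library was above its PBS library in MIA PaCa-2 cells and below it in PANC-1 cells. The log2 ratio was 1.50 in MIA PaCa-2 and -0.83 in PANC-1 cells, a difference of -2.33, PANC-1 minus MIA PaCa-2. DAGLB did the same on a smaller scale, with log2 ratios of 0.40 and -0.22 and a difference of -0.61. All 4 counting intervals left out 0, but the difference between lines was not tested, since 1 library per condition leaves no residual degree of freedom for it.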

How the results depend on the processing

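With 1 library per condition no library could be left out, and the values in a line hold for that pair of libraries only. No direction of a called value turned under any alternative run among the members and the up to 3 genes named from each list. The other genes called were not checked for a turn. Scaling by library totals alone took the median log2 ratio of all genes at baseline from 0.10 to -0.03.

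Keeping every gene with at least 1 count raised the genes called to 5816 of 25180 compared in MIA PaCa-2 cells (2864 of 14001 as reported). In PANC-1 cells it called 4847 of 25208 (2078 of 14091) and at baseline 10878 of 25537 (6207 of 14805). In the test of CBC over both lines it called 2063 of 28834 (771 of 16381). Keeping these genes also called 3 members in MIA PaCa-2 cells (TRPV2 besides FAAH and MGLL), 2 in PANC-1 cells (TRPV4 and TRPA1) and 1 in that test (MGLL). Between lines it called 8 members (TRPA1 added), among 8594 of 28834 genes called. Of the other genes named, MCOLN3, PPARG, PLAAT4 and PLCB3 then passed for CBC over both lines, at adjusted p-values of 0.00867 to 0.0400 in edgeR's quasi-likelihood test. Requiring 1 CPM in both libraries left 0 members called in MIA PaCa-2 cells (2 as reported), 0 in PANC-1 cells (1 as reported) and 2 at baseline (7 as reported). Over all genes it called 1991 of 12708, 1479 of 13095 and 3594 of 11922 in the same order. A counting interval wholly past 2-fold left 1719 of 14001 genes and 1 member, MGLL, called for the MIA PaCa-2 line. For the PANC-1 line this rule left 1187 of 14091 genes and 1 member, TRPA1. The deposited CPM with a pseudocount of 1 called MGLL as the 1 member in MIA PaCa-2 cells, among 2038 of 14001 genes. In PANC-1 cells it called 0 members and 1390 of 14091 genes. Library totals alone called 2 members, TRPA1 and MGLL, in PANC-1 cells, among 2147 of 14091 genes. Depth limits these calls, since the lower library of the pair held 6 counts of MGLL and 14 of FAAH in MIA PaCa-2 cells and 6 of TRPA1 in the PANC-1 line.

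DESeq2 called 1296 genes with CBC over both lines, PLCB3 among them at an adjusted p of 0.0147. Without the replicate block, that is, with the libraries of a cell line not paired, edgeR's quasi-likelihood test called 0 genes with CBC, with 354 at an unadjusted p under 0.05. Between lines, without the replicate block for treatment, it called 4251 genes (7652 as reported) and 2 members, TRPV2 and TRPV4 (7 as reported).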
